A study of Mus musculus with 8 samples.

Results

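The genes described here are 9 genes of renal sodium transport, chosen by name out of the 17457 genes in the deposited tables: Slc9a3, Slc12a1, Slc12a3, Scnn1a, Scnn1b, Scnn1g, Atp1b1, Wnk4 and Sgk1. Their mRNA was measured by RNA-Seq in the kidney cortex of wild-type C57BL/6J mice, an inbred strain, which had been fed a normal Pi diet (0.6%) or a high Pi diet (1.2%) for 3 days. Each diet had 4 libraries, which the labels number 1 to 4, and the labels name no engineered allele and no other agent. Each library is called a mouse here, although neither the labels nor the RNA-Seq methods say that each came from a separate animal, so p-values measure the spread between these libraries, which may be technical. The methods describe age-matched male mice. The labels give the tissue as kidney and the study's methods as kidney cortex. The study compared the diets to look for changes in metabolic gene expression under a dietary Pi load, and the same libraries are read here for the transport of sodium, on which renal Pi uptake depends as a cotransport.

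Sodium filtered at the glomerulus is taken back in series along the nephron, by a different transporter on the luminal side of each segment. The exchanger NHE3 (Slc9a3) acts in the proximal tubule and also in the thick ascending limb, the cotransporter NKCC2 (Slc12a1) in the thick ascending limb, the cotransporter NCC (Slc12a3) in the distal convoluted tubule, and the channel ENaC, built from the subunits of Scnn1a, Scnn1b and Scnn1g, in the connecting tubule and collecting duct. In every segment the Na,K-ATPase pumps sodium out on the blood side, and Atp1b1 encodes its beta subunit. Wnk4 encodes a kinase that acts through SPAK and OSR1 on NCC and NKCC2. Sgk1 encodes a kinase induced by aldosterone and glucocorticoids that keeps ENaC at the cell surface. Much of the control of these transporters is by phosphorylation and trafficking, which mRNA levels do not show.

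The values are FPKM, fragments per kilobase of transcript scaled to the size of the library, so levels can be set side by side between genes. Depth, estimated from the smallest FPKM steps, was 12200000 to 13200000 fragments per library. Tests covered the 12383 genes that reached 0.5 FPKM in 4 or more libraries, all 9 sodium transport genes among them, and a fold change is the high Pi mean minus the normal Pi mean of log2(FPKM + 1). The library of high Pi replicate 1 lay away from its group: its root mean square distance (log2) from the mean of the other 3 high Pi libraries was 0.299, against 0.139 to 0.212 for each of the other 7 libraries from its own diet. It held the highest value of the 8 libraries in 33.3% of the tested genes and in 5 of the 9 sodium transport genes, which were Slc12a3, Scnn1a, Scnn1g, Atp1b1 and Sgk1. In the other libraries the share of tested genes highest there was 4.54% to 16.1%. Results below are therefore given with and without that library. Markers of the segments were present in every library: none of the 6 markers of the thick ascending limb, 4 of the distal convoluted tubule, 4 of the connecting tubule and 5 of principal cells was at 0 in any mouse.

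None of the 9 genes was called higher or lower on the high Pi diet, and most differed by less than the spread between the mice of a diet. By limma-trend with Benjamini-Hochberg adjustment over all tested genes, 0 of 9 passed an adjusted p of 0.05 (smallest adjusted p = 0.570, Scnn1b), 0 had an unadjusted p under 0.05, and 0 had values that did not overlap between the diets. Of all tested genes, 0.299% (37 genes, 22 higher and 15 lower) passed the adjusted threshold, 9.35% had an unadjusted p under 0.05 and 5.02% did not overlap between the diets. A count of 0 among 9 genes was thus near the background of each of these measures. For each of the 9, the 95% confidence interval stayed inside 1.5-fold up and down. On log2, 4 of the 9 were above 0 and 5 below, with a median of -0.07 against -0.01 over all tested genes.

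**Figure D1:**
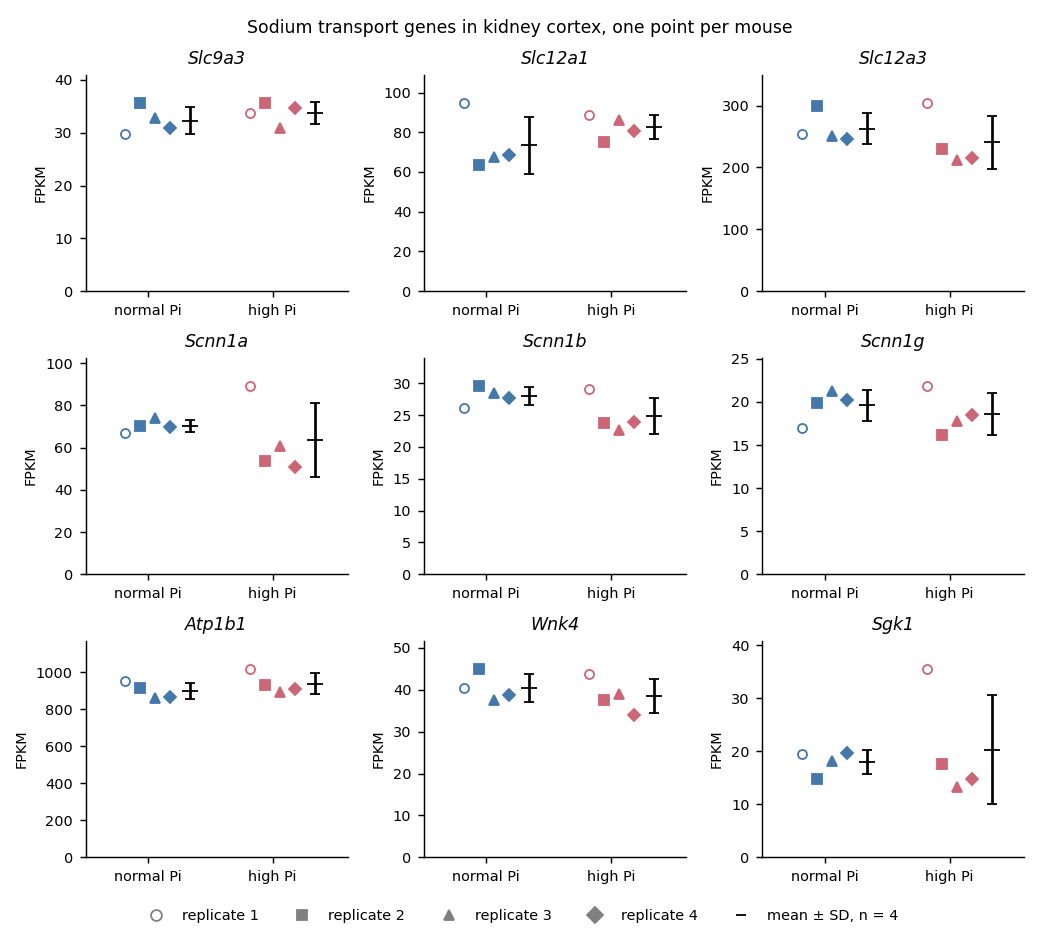
FPKM of the 9 genes in each of the 8 mice (vertical axes from 0), with blue points for normal Pi, red points for high Pi, a symbol per replicate number and the mean ± SD (n = 4) in black. The 2 diets overlapped in all 9 genes, and the open red circle, high Pi replicate 1, lay above the other 7 mice in 5 of them.

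Slc9a3, which encodes NHE3, lies on chromosome 13 from 74086255 to 74169442 of GRCm38.p6 (gene ID 105243). Its FPKM, in the order of the replicate numbers, were 29.8, 35.6, 32.8 and 30.9 in the normal Pi mice and 33.7, 35.7, 30.8 and 34.7 in the high Pi mice. The 2 ranges nearly coincided, and no mouse stood out. The means were 32.2 ± 2.56 (SD, n = 4) and 33.7 ± 2.09 (SD, n = 4) FPKM, with a log2 fold change of 0.06 ± 0.0746 (SE, adjusted p = 0.874 by limma-trend) and a 95% confidence interval from 0.934-fold to 1.17-fold. An exact two-sided permutation test of the FPKM gave p = 0.343, where 4 mice against 4 can go no lower than 0.0286. Without high Pi replicate 1 the log2 fold change was again 0.06 (adjusted p = 0.694). The summed FPKM of the 8 markers of the S1 and S2 segments of the proximal tubule, where NHE3 is abundant, was 4905 to 5677 in the normal Pi mice and 3999 to 4683 in the high Pi mice. Slc34a1, a sodium-phosphate cotransporter, made up 70.8% of this sum, and the other 7 markers summed to 1376 to 1531 and 1234 to 1519 FPKM, which overlapped. Of the 8 markers 6 were below 0 and 2 above on the log2 scale, and 0 passed limma-trend with all libraries and 5 without high Pi replicate 1, all 5 lower. Of all tested genes, 0.299% passed with all libraries, and 2.14% were lower past the threshold without that library. As in any bulk sample, fewer cells of a type and less RNA per cell cannot be told apart in these values.

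Slc12a1, which encodes NKCC2, the target of loop diuretics, lies on chromosome 2 from 125152510 to 125230002 (gene ID 20495). Its FPKM in replicates 1 to 4 were 94.8, 63.5, 67.4 and 68.4 in the normal Pi mice and 88.8, 75.1, 86.4 and 80.8 in the high Pi mice. Every high Pi mouse was above normal Pi replicates 2, 3 and 4, and normal Pi replicate 1 was above all of them. The means were 73.5 ± 14.3 (SD, n = 4) and 82.8 ± 6.11 (SD, n = 4) FPKM, for a log2 fold change of 0.18 ± 0.112 (SE), with p = 0.675 by limma-trend after adjustment and p = 0.286 by an exact permutation test. This was the largest difference on the log2 scale among the 9 genes. Without normal Pi replicate 1 the log2 fold change was 0.31, at a limma-trend adjusted p of 0.177, and without high Pi replicate 1 it was 0.15 (adjusted p = 0.528). The 6 thick ascending limb markers summed to 1115 to 1237 FPKM (normal Pi) and 1132 to 1525 FPKM (high Pi). Umod, the uromodulin gene, made up 70.6% of this sum. The other 5 markers summed to 334 to 381 and 339 to 396 FPKM, which overlapped. All 6 were above 0 on the log2 scale, at 0.01 to 0.24, and 1 was below 0 without high Pi replicate 1. Relative to the sum of all 6, Slc12a1 was 0.056 to 0.077 in the normal Pi mice and 0.057 to 0.069 in the high Pi mice. The part of segment content in the values of Slc12a1 was not tested.

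Slc12a1 mRNA exists in forms that differ in 1 exon. Known as B, A and F after the exon they carry, they are spread unevenly along the thick ascending limb, with F in the medulla, B towards the macula densa and A in both, and the exons lie in the gene in the order B, A, F. The deposited tables list 2 transcripts, NM_183354.2 and NM_001079690.1. In the GENCODE M21 annotation their exon 5 is a different coding exon of 96 bases on the plus strand of chromosome 2, at chr2:125166123-125166218 for NM_183354.2 and chr2:125166673-125166768 for NM_001079690.1, the last of the 3 in the gene. A further one, at chr2:125165495-125165590, belongs to ENSMUST00000110494.8, which was not analysed here. The exons are shown because the forms behaved differently across the mice. Capitals mark the positions at which the 3 exons do not all have the same base, and lower case the 51 of 96 positions they share.

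Slc12a1 exon 5 of ENSMUST00000110494.8: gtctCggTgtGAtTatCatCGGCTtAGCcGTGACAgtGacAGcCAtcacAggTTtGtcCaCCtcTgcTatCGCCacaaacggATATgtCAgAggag
Slc12a1 exon 5 of NM_183354.2: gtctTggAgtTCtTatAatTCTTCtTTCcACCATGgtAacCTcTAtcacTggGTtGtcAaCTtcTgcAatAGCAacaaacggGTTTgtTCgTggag
Slc12a1 exon 5 of NM_001079690.1: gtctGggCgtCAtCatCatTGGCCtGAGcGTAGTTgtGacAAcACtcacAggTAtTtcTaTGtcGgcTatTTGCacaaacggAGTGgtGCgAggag

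The exons of the 2 listed transcripts shared 56 of 96 bases (58.3%), so reads over this exon can tell them apart. Reads elsewhere in the gene may not, and the rest of the 2 transcripts was not compared. NM_001079690.1 had 42.2, 13.7, 17.5 and 10.1 FPKM in normal Pi replicates 1 to 4 and 18.1, 23.7, 40.9 and 36.4 FPKM in high Pi replicates 1 to 4. NM_183354.2 had 52.6, 49.8, 49.9 and 58.3 FPKM and then 70.8, 51.4, 45.5 and 44.4 FPKM in the same order. NM_001079690.1 thus varied more within a diet (SD 14.5 and 10.7 FPKM) than between the diet means (20.9 and 29.8 FPKM), and it made up 14.8% to 44.5% of the gene in the normal Pi mice and 20.3% to 47.3% in the high Pi mice. By limma-trend on the transcripts, its log2 fold change was 0.62 ± 0.413 (SE, adjusted p = 0.819) and that of NM_183354.2 was -0.01 ± 0.139 (SE, adjusted p = 0.995). The share of NM_001079690.1 did not pass an exact two-sided permutation test either (p = 0.314). Over all tested transcripts, 0.0221% passed the adjusted threshold, and of the 28 listed transcripts of the 9 genes 21 were tested and 0 passed, with 1 at an unadjusted p under 0.05 (NM_011325.2 of Scnn1b, log2 fold change -0.23).

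The 3 libraries with the highest NM_001079690.1 were normal Pi replicate 1 and high Pi replicates 3 and 4. In the same 3 libraries Cfd, a gene of fat cells, had 35.7, 70.4 and 164 FPKM, against 0.00 to 0.96 FPKM in the other 5. Slc14a2, a urea transporter of the medulla, had 1.17, 3.71 and 0.10 FPKM in these 3 libraries and 0.00 to 0.06 FPKM in the others, a set of genes chosen after their values were seen. Cyp7b1, a gene of the S3 segment that lies towards the medulla, had 62.8, 92.6 and 78.9 FPKM in the 3 libraries and 16.5 to 72.3 in the others. The 5 S3 markers, Cyp7b1 among them, summed to 2546, 2453 and 2566 FPKM in the 3 libraries. In the others they summed to 2042 to 2921 FPKM, with the highest sum in high Pi replicate 2. Slc27a2 made up 64.4% of this sum, and the other 4 summed to 1015, 1022 and 1010 FPKM against 545 to 1056. The 4 inner medulla markers summed to 137, 209.5 and 162 FPKM in the 3 libraries and to 93.2 to 145 in the others, with 2 of the 4 markers at 0 in at least 1 library. Cryab made up 69.1% of this sum. Without Cryab the sums were 42.0, 50.9 and 47.0 FPKM in the 3 libraries and 29.3 to 48.2 in the others, which overlapped. The part of the tissue sampled in these differences was not tested. With the 3 libraries left out, an alternative chosen after seeing the data, the log2 fold change of Slc12a1 was 0.29 and 0 of the 9 genes passed.

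**Figure D2:**
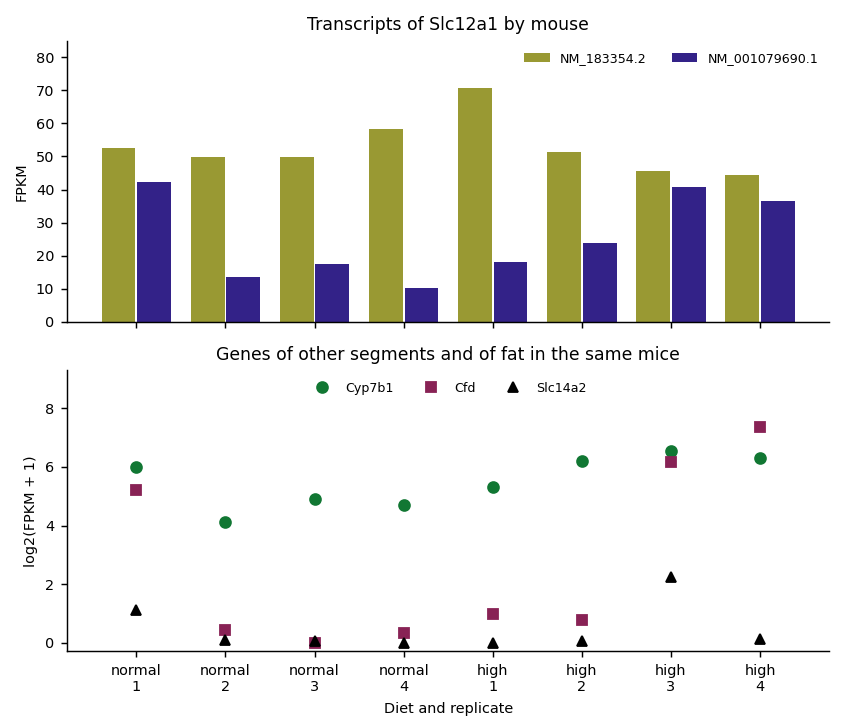
Upper panel, FPKM of the 2 listed transcripts of Slc12a1 in each mouse (bars, axis from 0), and lower panel, log2(FPKM + 1) of Cyp7b1, Cfd and Slc14a2 in the same mice. NM_001079690.1 was at 36.4 FPKM or more in normal Pi replicate 1 and high Pi replicates 3 and 4, the libraries in which Cfd was at 35.7 FPKM or more.

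Slc12a3, which encodes NCC, the target of thiazides, lies on chromosome 8 from 94329109 to 94366222 (gene ID 20497). In replicates 1 to 4 it had 254, 299.8, 252 and 246 FPKM in the normal Pi mice and 304, 229.6, 212 and 215 FPKM in the high Pi mice. High Pi replicate 1 was the highest of the 8 mice and the other 3 high Pi mice were the lowest of the 8. The means were 263 ± 24.9 (SD, n = 4) and 240.3 ± 43.4 (SD, n = 4) FPKM, for a log2 fold change of -0.14 ± 0.111 (SE), with p = 0.766 by limma-trend after adjustment and p = 0.400 by an exact permutation test. Without high Pi replicate 1 it was -0.26 ± 0.0746 (SE), still short of the threshold at an adjusted p of 0.0913. Of its transcripts, NM_001205311.1 made up 86.5% of the gene and NM_019415.2 11.97%, and how reads are divided between them is uncertain.

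Wnk4, mutated in a familial form of hypertension with high potassium, lies on chromosome 11 from 101260537 to 101277409 (gene ID 69847). In the same order it had 40.4, 45.0, 37.5 and 38.7 FPKM in the normal Pi mice and 43.7, 37.5, 38.9 and 34.04 FPKM in the high Pi mice. The 2 diets overlapped over most of their range. The log2 fold change was -0.07 ± 0.0849 (SE, adjusted p = 0.886 by limma-trend), or -0.13 without high Pi replicate 1 (adjusted p = 0.390). The ratio of Slc12a3 to Wnk4 within a library was 6.29 to 6.70 in the normal Pi mice and 5.44 to 6.97 in the high Pi mice.

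The 4 markers of the distal convoluted tubule summed to 269 to 290.5 FPKM on the normal Pi diet, to 340.2 FPKM in high Pi replicate 1 and to 265 to 269 FPKM in the remaining high Pi mice. Their sum was therefore also highest in the library in which Slc12a3 was highest, and relative to it Slc12a3 was 0.845 to 1.09 in the normal Pi mice and 0.799 to 0.895 in the high Pi mice. Tmem52b made up 64.6% of this sum, so the ratio rests largely on it. The other 3 markers summed to 86.0 to 98.6 FPKM in the normal Pi mice and 93.3 to 123.6 FPKM in the high Pi mice. That sum was again highest in high Pi replicate 1. Of these 4 markers 1 rose: Pvalb, the calcium-binding protein of the early distal convoluted tubule, had 37.4, 32, 33.7 and 42.3 FPKM in the normal Pi mice and 51.7, 49.98, 55.7 and 48.1 FPKM in the high Pi mice. Its log2 fold change was 0.49 (adjusted p = 0.0420 by limma-trend) while of the 4 markers 2 were above 0 and 2 below. The part of segment content in the values of Slc12a3 was not tested.

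The 3 ENaC genes shared a pattern in which 3 of the 4 high Pi mice were low and high Pi replicate 1 was not. Scnn1a, the alpha subunit, which the channel needs to reach the membrane, lies on chromosome 6 from 125314271 to 125344943 (gene ID 20276). By replicate number it had 67.0, 70.3, 74.1 and 69.9 FPKM in the normal Pi mice and 89.3, 53.9, 61.0 and 51.0 FPKM in the high Pi mice. The normal Pi mice lay in a narrow band, with 1 high Pi mouse above it and 3 below. The SD was 2.92 FPKM in the normal Pi mice and 17.5 in the high Pi mice (n = 4 each) about means of 70.3 and 63.8, and the log2 fold change was -0.17 ± 0.140 (SE), with p = 0.768 by limma-trend after adjustment and p = 0.514 by an exact permutation test.

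Scnn1b, the beta subunit, and Scnn1g, the gamma subunit, are neighbours on chromosome 7, from 121865038 to 121918728 (gene ID 20277) and from 121734420 to 121768482 (gene ID 20278). Scnn1b had 26.2, 29.6, 28.5 and 27.7 FPKM in the normal Pi mice and 29.0, 23.8, 22.7 and 23.9 FPKM in the high Pi mice. The 3 lowest mice were again high Pi replicates 2, 3 and 4. Its means were 28.0 ± 1.44 and 24.9 ± 2.83 FPKM (SD, n = 4 each), with a log2 fold change of -0.17 ± 0.0822 (SE), with p = 0.570 by limma-trend after adjustment and p = 0.114 by an exact permutation test. Scnn1g had 17.0, 19.8, 21.3 and 20.2 FPKM in the normal Pi mice and 21.9, 16.2, 17.8 and 18.5 FPKM in the high Pi mice. Here normal Pi replicate 1 lay among the low high Pi mice, and the log2 fold change was -0.08 ± 0.0971 (SE, adjusted p = 0.892 by limma-trend). Within a library Scnn1a was 2.13 to 3.08 times as abundant as Scnn1b in the high Pi mice and 2.38 to 2.60 times in the normal Pi mice, and Scnn1b was 1.27 to 1.54 times as abundant as Scnn1g over all 8 mice.

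Of the 4 connecting tubule markers, 3 had the order of Scnn1a, highest in high Pi replicate 1 and lower in the other 3 high Pi mice than in every normal Pi mouse. Of all tested genes, 33.3% had the former property and 12.3% the latter, and the share with both was not counted. The 3 markers were Calb1, the calcium-binding protein calbindin, with 235 FPKM in high Pi replicate 1, 112 to 140 in the remaining high Pi mice and 152 to 162 on the normal Pi diet, the sodium-calcium exchanger Slc8a1 and the calcium channel Trpv5. Their sum was 254 FPKM in high Pi replicate 1, 124 to 150 in the remaining high Pi mice and 167 to 177 on the normal Pi diet. S100g, which made up 87.5% of the sum of all 4, did not have that order, and with it the sums were 1306 to 1564 FPKM in the normal Pi mice and 970 to 1495 FPKM on the high Pi diet. The 5 principal cell markers, Aqp2 included, summed to 169 to 209 FPKM and 167 to 212 FPKM, with 179 in high Pi replicate 1. The 6 intercalated cell markers summed to 223 FPKM in high Pi replicate 1, to 139 to 144 in the remaining high Pi mice and to 171 to 183 on the normal Pi diet, the same order as Scnn1a. Sums of markers of podocytes (5 genes), endothelium (5 genes), leukocytes (5 genes) and tubule injury (3 genes) were also highest in high Pi replicate 1, at 141.5, 143, 425 and 8.80 FPKM, against at most 117, 128, 373 and 6.78 FPKM in the other 7 libraries. Cd74 made up 91% of the leukocyte sum. Without it that sum was 36.6 FPKM in high Pi replicate 1 and highest, at 42.45 FPKM, in high Pi replicate 4. The podocyte, endothelium and tubule injury sums without their largest gene stayed highest in high Pi replicate 1. Sums of the proximal tubule, thick limb, inner medulla, fibroblast and mural cell, adipocyte and erythroid markers were not highest there. The S3 sum was at 2042 FPKM in that library, the lowest of the 8. Of single tested genes, 33.3% were highest in that library. The part of all these markers in the values of the sodium transport genes was not tested.

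Sgk1 lies on chromosome 10 from 21882184 to 21999903 (gene ID 20393). Its mRNA was at 19.5, 14.9, 18.1 and 19.7 FPKM in the normal Pi mice and 35.6, 17.6, 13.4 and 14.7 FPKM in the high Pi mice. High Pi replicate 1 was far above the other 7 mice, and the other high Pi mice lay within or just below the normal Pi range. The means were 18.03 ± 2.22 and 20.3 ± 10.3 FPKM (SD, n = 4 each), and the log2 fold change of 0.06 had the largest standard error of the 9 genes, 0.234 (limma-trend, adjusted p = 0.971, and p = 0.971 in the exact permutation test). Its 95% confidence interval reached from 0.734-fold to 1.49-fold. Without high Pi replicate 1 the log2 fold change was -0.23 ± 0.109 (SE, adjusted p = 0.281). Of other genes that glucocorticoids induce, Per1 and Tsc22d3 were also highest in that mouse and Fkbp5 was not. Per1, a clock gene, had 14.9 FPKM there and 5.38 to 12.3 in the others, and Tsc22d3, the glucocorticoid-induced leucine zipper, had 18.6 FPKM there and 9.04 to 15.5 in the others. Fkbp5, a cochaperone of the glucocorticoid receptor, had 16.9 FPKM there and 15.4 to 24.6 in the others, and these 3 were picked out after their values were seen. Their part in the value of Sgk1 was not tested.

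Atp1b1 lies on chromosome 1 from 164437099 to 164458355 (gene ID 11931) and overlaps Nme7, a gene at 10.4 to 11.9 FPKM. Replicates 1 to 4 had 954, 916, 859 and 866 FPKM in the normal Pi mice and 1018, 933, 891 and 909 FPKM in the high Pi mice. The means of 899 ± 44.8 and 938 ± 56.3 FPKM (SD, n = 4 each) differed by less than the spread between mice, with a log2 fold change of 0.06 ± 0.0714 (SE, adjusted p = 0.874 by limma-trend), or 0.02 with high Pi replicate 1 left out (adjusted p = 0.885).

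Leaving out high Pi replicate 1 moved Sgk1 most of the 9 genes, from a log2 fold change of 0.06 to -0.23, and next Scnn1a, from -0.17 to -0.34. In the remaining 7 libraries 6 of the 9 genes had a log2 fold change below 0, with a median of -0.15 against -0.04 over all tested genes. In 3 of the 9, Slc12a3, Scnn1a and Scnn1b, the 3 high Pi mice lay below all 4 normal Pi mice, as they did in 12.3% of tested genes. Of the 9 genes 1 was lower past the threshold, as were 2.14% of tested genes (265 of 12383), out of 421 called in either direction. That gene was Scnn1a, at 70.3 ± 2.92 FPKM in the normal Pi mice (SD, n = 4) and 55.3 ± 5.15 FPKM in the 3 high Pi mice (SD, n = 3), for a log2 fold change of -0.34 ± 0.0700 (SE, adjusted p = 0.0252 by limma-trend). Scnn1b was at -0.24 (adjusted p = 0.0658) and Scnn1g at -0.15 (adjusted p = 0.355), so the other subunits did not pass. The exact two-sided permutation p was 0.0286 for Slc12a3, Scnn1a and Scnn1b, the smallest that 4 mice against 3 allow. It only restates that their 3 high Pi values lay below all 4 normal Pi values, as in 12.3% of tested genes.

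**Figure D3:**
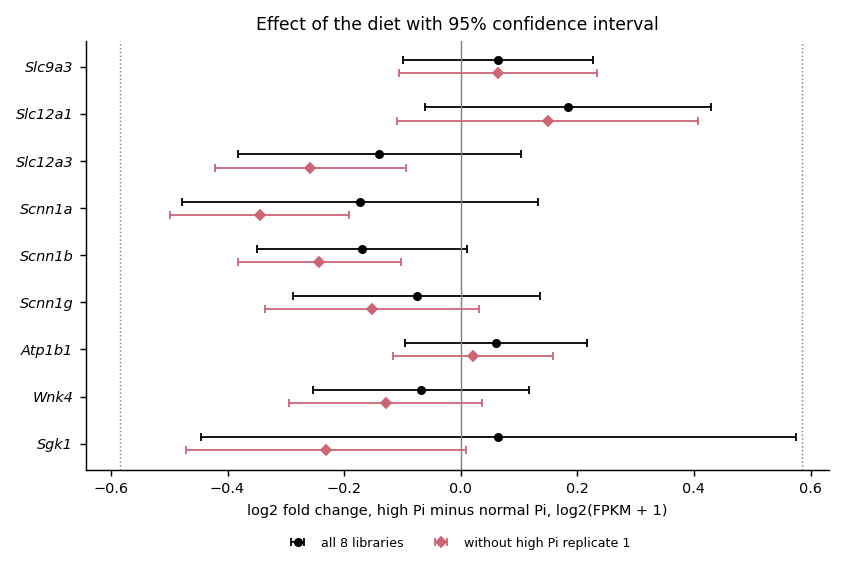
Log2 fold change (high Pi minus normal Pi, log2(FPKM + 1)) of the 9 genes with its 95% confidence interval, from all 8 libraries (black circles) and without high Pi replicate 1 (red diamonds), with dotted lines at a 1.5-fold change. With all 8 libraries every interval included 0, and without that library those of Slc12a3, Scnn1a and Scnn1b lay below 0.

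Around these genes, 56 further genes of sodium handling in 5 lists were followed, of which 54 passed the filter on low values. None of the 54 passed limma-trend (smallest adjusted p = 0.315), 4 had an unadjusted p under 0.05, all of them higher on the high Pi diet, and 0 did not overlap between the diets. In that order, the shares of all tested genes were 0.299%, 9.35% and 5.02%, so none of these counts exceeded the background. The median log2 fold change of the 54 was -0.01, as over all tested genes, and without high Pi replicate 1 again 0 passed. The 4 stood in 3 of the lists. Of 9 exchangers and partners of NHE3, Chp1, a calcineurin-like cofactor of the exchangers, had 54.5 ± 2.24 and 63.1 ± 6.10 FPKM (log2 fold change 0.20, adjusted p = 0.375). In the same list Ezr, ezrin, which ties NHE3 to the cytoskeleton, was at -0.15 (adjusted p = 0.592). Of 10 thick limb partners of NKCC2, Umod, uromodulin, had 797 ± 40.0 and 952 ± 148 FPKM (log2 fold change 0.24, adjusted p = 0.456). In the same list Kcnj1, the ROMK channel that recycles potassium, was at 0.04 with 71.0 ± 2.37 and 73.1 ± 8.65 FPKM. Values are means ± SD over 4 mice per diet here and below.

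No gene of the remaining lists passed either. Of 12 genes of the WNK pathway and the distal convoluted tubule, 11 were tested and 9 had a log2 fold change below 0, with a median of -0.05. Wnk1, the other main WNK kinase of the kidney, had 52.0 ± 2.32 and 46.4 ± 11.6 FPKM (log2 fold change -0.19, adjusted p = 0.728), with 62.6 FPKM in high Pi replicate 1 and 34.9 to 45.1 in the rest of its diet. Without that mouse it was at -0.34, just short of the threshold at a limma-trend adjusted p of 0.0518. Kcnj16, a basolateral potassium channel subunit, was at 0.09. Of 16 corticosteroid receptors and ENaC regulators, 10 were below 0, with a median of -0.04. Nr3c2, the mineralocorticoid receptor, had 2.80 ± 0.309 and 2.70 ± 0.556 FPKM (log2 fold change -0.05). Hsd11b2, the enzyme that shields it from glucocorticoids, had 112 ± 6.49 and 112 ± 15.4 FPKM (-0.01). Nr3c1, the glucocorticoid receptor, was at -0.18 and Prss8, a protease that activates ENaC, at -0.09. Of 9 other Na,K-ATPase subunits, 8 were tested and 6 were above 0, with a median of 0.15. Fxyd5 and Fxyd1, small regulators of the pump that are also found outside the tubule, were at 0.26 and 0.23 (adjusted p = 0.315 and 0.460).

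**Figure D4:**
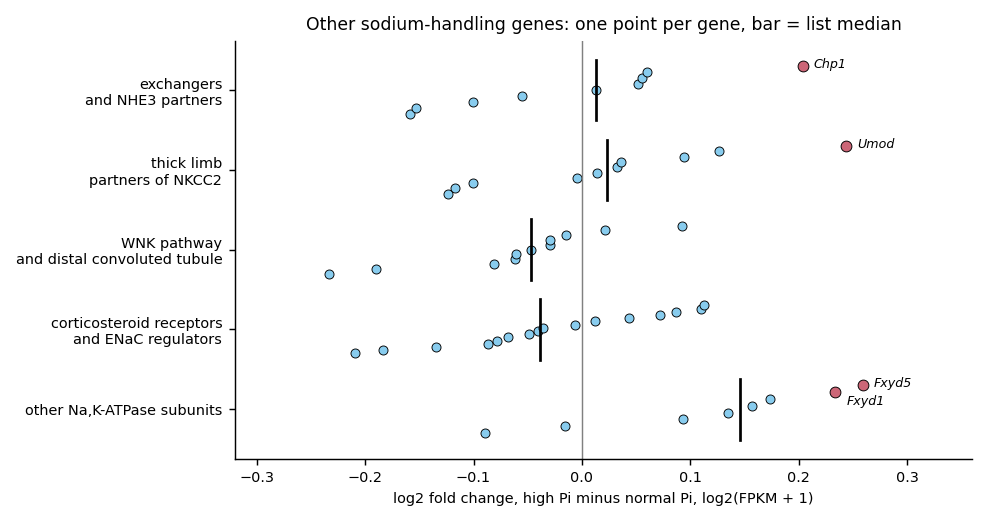
Log2 fold change (high Pi minus normal Pi) of the 54 tested genes of the 5 lists, 1 point per gene, with the list median as a bar and the 4 genes with an unadjusted p under 0.05 in red. All points lay between -0.23 and 0.26, and 0 of the 54 passed the adjusted threshold.

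By its mean level, Atp1b1 was highest of the 9 genes, with a mean of 918 FPKM over all 8 mice, followed by Slc12a3 at 252, Slc12a1 at 78.2, Scnn1a at 67.1, Wnk4 at 39.5, Slc9a3 at 33.0, Scnn1b at 26.4, Sgk1 at 19.2 and Scnn1g at 19.1. Of the 8 pairs of neighbours in this order, 4 kept it in all 8 mice. Wnk4 was above Slc9a3 and Scnn1b above Sgk1 in 7 of 8 mice. Slc12a1 exceeded Scnn1a in 4 of 8 mice and Sgk1 exceeded Scnn1g in 3 of 8, so these 2 pairs did not differ beyond their spread. Within a library the ratio of Slc12a3 to Slc12a1 was 2.68 to 4.72 in the normal Pi mice and 2.45 to 3.43 in the high Pi mice.

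Pairs of genes that share a segment or a regulator were compared across the 8 mice, as 4 relations on log2(FPKM + 1) with exact permutation tests. Slc12a3 and its regulator Wnk4 had a Pearson r of 0.86 (exact permutation p = 0.00947, adjusted over the 4 pairs 0.0379) and a Spearman rho of 0.69 (exact permutation p = 0.0636, adjusted 0.127). Without the 2 mice farthest from the median of Slc12a3, r was 0.51. Scnn1b and Scnn1g had an r of 0.77 (exact permutation p = 0.0324, adjusted 0.0447) and a rho of 0.74 (exact permutation p = 0.0458, adjusted 0.127), with an r of 0.68 without the 2 farthest mice. Sgk1 and Scnn1a, both induced by aldosterone, had an r of 0.74 (exact permutation p = 0.0335, adjusted 0.0447) and a rho of 0.64 (exact permutation p = 0.0962, adjusted 0.128). This r was 0.43 without the 2 farthest mice and 0.40 without high Pi replicate 1 alone, so the relation rested on that mouse. Slc12a1 and Atp1b1 had an r of 0.62 (exact permutation p = 0.101, adjusted 0.101), a rho of 0.60 (exact permutation p = 0.132, adjusted 0.132) and an r of 0.73 without the 2 farthest mice. As deviations from the diet means, r was 0.85, 0.81, 0.83 and 0.53 for the 4 pairs in the order given. Without high Pi replicate 1 alone, r was 0.81, 0.73, 0.40 and 0.55 in the same order. No rho passed after adjustment.

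**Figure D5:**
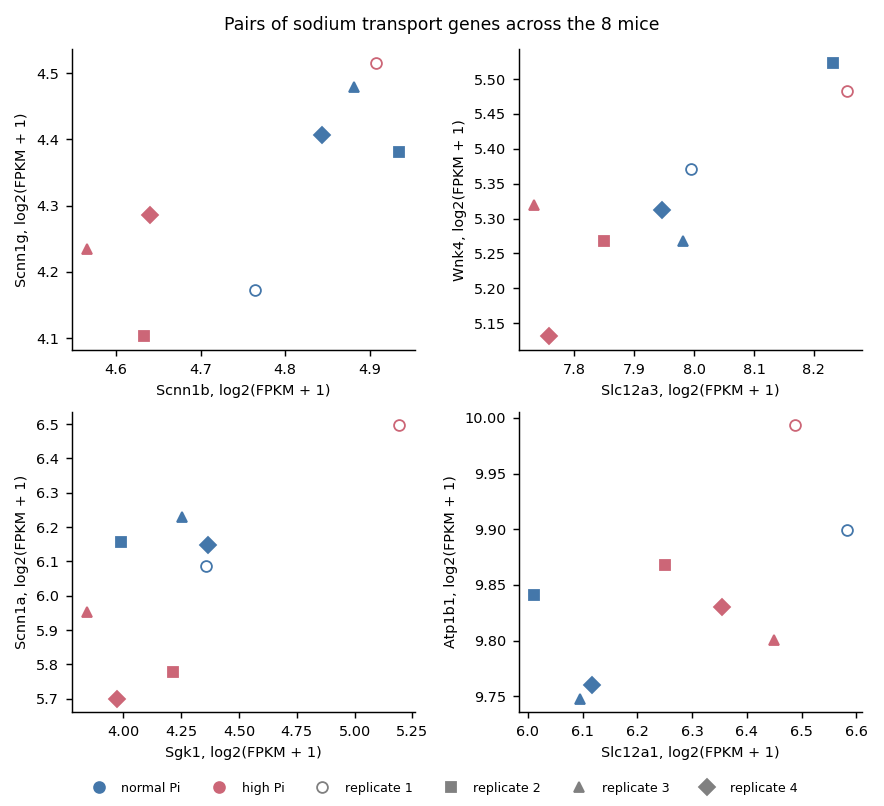
The 4 pairs of genes across the 8 mice, both axes log2(FPKM + 1), with blue for normal Pi, red for high Pi and a symbol per replicate number. The open red circle, high Pi replicate 1, lay towards the upper right in all 4 panels, and without it the r of Sgk1 and Scnn1a was 0.40.

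As a description, the genes with the most similar pattern over the 8 libraries were listed for each gene, among the 7657 other genes of at least 5 FPKM on average. The nearest to Slc12a3 was Stx3 (r = 0.997), a syntaxin, and Nacc1 was also among its nearest 3. The nearest 3 to Scnn1a included Atp6v0c, a proton pump subunit, and Mepce (r = 0.99 each), and those nearest to Scnn1b were Habp2, Gm39743 and Gna12 (0.99 each). Scnn1g lay nearest to Smtnl2, Nphs1, the nephrin gene of podocytes, and Ninj1 (0.98, 0.98 and 0.96), Atp1b1 to Mbnl1, Ncstn and Ppp3ca (0.98, 0.97 and 0.97) and Wnk4 to Cadm4, Chd8 and Mvp (0.98, 0.98 and 0.94). Sgk1 was nearest to Slc6a6, the taurine transporter, Wee1 and Pcbp2 (0.98, 0.97 and 0.96). Slc12a1 was nearest to Dpp3, Efemp1 and Ndufa9 (0.97, 0.94 and 0.94) and Slc9a3 to Vrk3, Ilvbl and Snx19 (0.90, 0.89 and 0.88). The points of every such r share the same 8 libraries and their scaling, high Pi replicate 1 included.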

How the data were processed

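Kidney cortex mRNA was sequenced by the authors on the BGI DNBSEQ platform, in 4 libraries per diet. The submitters' processing notes name HISAT, Bowtie2 and GRCm38.p6, and their versions and the gene models are not given in the sources used here. The authors deposited FPKM per gene and per transcript, scaled to each library and rounded to hundredths. Counts were not used, so tests on counts were not run. The 9 genes and all gene lists were chosen with earlier results of these data known.

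The test was limma-trend (limma 3.58.1 under R 4.3.3) on log2(FPKM + 1), for genes that reached 0.5 FPKM in 4 or more libraries. Differences are the high Pi mean less the normal Pi mean, with Benjamini-Hochberg adjusted p-values over all tested genes and a threshold of 0.05. Transcripts were tested in the same way. For single genes the FPKM means were also compared by exact two-sided permutation over the 70 ways to assign 4 of 8 mice. The fit was tested on simulated data. The 2 most alike libraries, normal Pi replicates 3 and 4, differed by a root mean square log2 of 0.167, so none was counted as a duplicate. That each library came from a separate mouse is not given in the sources used here.

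Named genes were the 9, then of 5 lists of sodium-handling genes every gene past the threshold or otherwise the 2 of smallest unadjusted p, with Wnk1, Nr3c2, Hsd11b2 and Kcnj1 always, and the 3 genes most like each of the 9. Some genes that this rule names are not reported here. Genes outside this rule were named after their values were seen. Alternatives were quantile normalization, median-of-ratios scaling, a pseudocount of 0.1, no filter, a replicate block, library weights, removal of each library's trend on transcript length, and leaving out each mouse. Depth was estimated from the steps of low FPKM values with GENCODE M21 lengths. At these depths a library held roughly 4610 fragments of Slc12a1 (counting error 1.5%), 10400 of Slc12a3 (0.98%), 831 of Scnn1b (3.5%), 717 of Scnn1g (3.7%), 30100 of Atp1b1 (0.58%) and 602 of Sgk1 (4.1%). No estimate was made for Slc9a3, Scnn1a and Wnk4, whose transcripts of known length held under 80% of the value. Positions come from RefSeq on GRCm38.p6, exon sequences from GENCODE M21 on GRCm38. The other steps ran in Python 3.11.15 (pandas 2.3.3, numpy 2.4.6, matplotlib 3.10.9 and scipy 1.17.1).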

Additional observations from a re-analysis of the deposited data

Results flagged for a closer look

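Of 42 sets of 4 values examined (the 9 genes and their transcripts that made up 10% to 90% of a gene, in each diet), 7 held a mouse whose gap to the nearest of the others, as a share of the whole range, exceeded Dixon's 95% critical value, where chance gives about 1 set in 20. The sets are not independent, because a gene is counted beside its own transcripts and all share the same libraries. Of the 7, 4 were high Pi replicate 1. On the normal Pi diet, replicate 1 was far above the others in Slc12a1 (94.8 FPKM, next 68.4). Replicate 2 was far above in Slc12a3 (299.8 FPKM, next 254) and in its transcript NM_001205311.1 (266 FPKM, next 221). On the high Pi diet, replicate 1 was far above the others in 4 transcripts: NM_001205311.1 of Slc12a3 (259 FPKM, next 192), NM_011324.2 of Scnn1a (62.4 FPKM, next 38.3), NM_175638.3 of Wnk4 (31.5 FPKM, next 25.2) and NM_011361.3 of Sgk1 (33.1 FPKM, next 14.1).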

How the results depend on the processing

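The count of the 9 genes past the threshold was 0 in the main comparison and 1 (Scnn1a) with library weights, where its log2 fold change was -0.35 (limma-trend adjusted p = 0.0479), and without high Pi replicate 1. Leaving out each mouse in turn gave 0 to 1 of the 9 genes, 0 of the 54 other sodium-handling genes, 0 of the 21 tested transcripts and 4 to 421 of all genes, with 421 without high Pi replicate 1. Of all genes 37 passed in the main comparison, 466 with library weights, 8 with no filter on low values, and 8 without the 3 libraries with Cfd over 30 FPKM, an alternative chosen after seeing the data. Quantile normalization, median-of-ratios scaling, a pseudocount of 0.1 and removal of the length trend gave 26, 30, 38 and 38. Deviations of same-numbered mice had correlations of -0.21, -0.01, 0.06 and -0.12 for replicates 1 to 4, against -0.20 to 0.26 for differently numbered mice. The labels do not say what the numbers stand for, and these values cannot settle whether they pair the samples. With the replicate number as a block, 0 of the 9 genes, 0 other sodium-handling genes, 0 transcripts and 11 of all genes passed. The sign of 2 genes turned in 4 of 144 alternatives over the 9 genes. Sgk1 (0.06) was at -0.18 with library weights and at -0.23 to 0.22 when a mouse was left out, below 0 without high Pi replicate 1 or normal Pi replicate 2 (-0.02). Without the 3 libraries with Cfd over 30 FPKM, Wnk4 (-0.07) was at 0.007, Sgk1 at 0.50, Slc12a3 (-0.14) at -0.001 and Scnn1a (-0.17) at -0.041. The cause of these shifts was not tested. In 138 of the 144 the direction and the side of the threshold were as in the main comparison. With 4 mice per diet, differences under about 1.5-fold in genes as variable as Sgk1 could not be told from the spread between mice.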
